A study of Mus musculus with 16 samples.

Results

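Krt36, Krt84, Krt31, Krt35 and Krt71 are 5 keratin genes of the hair type or of the inner root sheath, out of 18194 genes that the arrays read from probe sets of a single gene symbol. They were taken by name: Krt36 and Krt84 as genes of tail scale epidermis, and Krt31, Krt35 and Krt71 as genes of the hair shaft or inner sheath. Krt36 and Krt84 were selected on their measured differences from control, lower after 4 and 10 weeks of SmoM2, so those differences are given as descriptions without a test. Each of the 5 genes has 1 probe set, and all 5 passed the filter on low signal with 14286 genes in all.

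The arrays measured RNA of cells sorted by flow cytometry from mouse tail epidermis of mixed strain background, in 16 arrays that fall into 8 groups. SmoM2 is an active form of Smoothened, the signal transducer of the hedgehog pathway, and its expression in the interfollicular epidermis (IFE) is a mouse model of basal cell carcinoma. The mice of the IFE arrays had the genotype K14CREER/Rosa-SmoM2-YFP. Tamoxifen activates the Cre recombinase of cells that use the K14 promoter, and these cells then make SmoM2 with a YFP reporter. The control group (n = 3) carried the same alleles and received no tamoxifen. After induction, 1 SmoM2 array was taken at 3 days, 3 arrays at 1 week, 3 at 4 weeks and 2 at 10 weeks. In the β-catenin loss group (n = 2, at 4 weeks) the same mice also carried b-cat flox/flox alleles, so SmoM2 and the loss of β-catenin were induced together. The groups do not include β-catenin loss on its own. Bulge and outer root sheath cells came from K19CREERT2/Rosa-SmoM2-YFP mice, 1 array without tamoxifen and 1 array at 4 weeks. Another Cre driver and another cell population therefore separate the bulge arrays from the IFE arrays. The source label of the untreated bulge array names SmoM2-positive cells, although its title says that no tamoxifen was given. Its levels of hedgehog target genes were near those of the bulge SmoM2 array for Gli1 (9.89 and 9.96) and Ptch1 (12.57 and 12.78), and lower for Hhip (7.67 and 10.64). In the IFE control arrays, which hold another cell population, Gli1 lay between 5.30 and 5.73 and Ptch1 between 8.66 and 9.11. Of the bulge stem cell markers, Cd34 was at 9.72 in the untreated bulge array and 6.83 in the bulge SmoM2 array. Lhx2 was at 11.89 and 11.61. Whether the untreated bulge array held SmoM2 cells was not tested. The array is therefore called the array labelled untreated, and no direction between the bulge arrays is assigned to SmoM2. The labels give no age and do not state if a replicate is a mouse or a pool, so p-values rest on the spread between the arrays of a group, which may be technical. Every array but the 3-day one carries an experiment number, shared across groups. It is 1, 2 and 3 for replicates 1, 2 and 3 of the control, 1-week and 4-week groups. It is 2 and 3 at 10 weeks, 1 and 2 with β-catenin loss and 1 in both bulge arrays. The comparisons below do not use this number unless a block is named. Values are log2 array signals as deposited, and the 40th percentile of an array lay between 4.88 and 5.01. The IFE label names basal cells. The basal keratin gene Krt14 was at 14.13 ± 0.11 (SD, n = 3) in control arrays, and Krt10, a keratin gene of differentiating epidermal cells, was at 13.88 ± 0.17 (SD, n = 3) in the same arrays.

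Keratins form intermediate filaments from pairs of a type I and a type II chain. Hair-type keratins are rich in cysteine and build the hard fibre of hair and nail. In mouse tail skin, bands of scale epidermis alternate with interscale epidermis between the hair follicles, and scale cells make some keratins that elsewhere belong to hair and nail, whereas interscale cells differentiate with Krt10. Krt36, Krt31 and Krt35 are type I hair keratins, Krt84 is a type II hair keratin, and Krt71 is a type II keratin of the inner root sheath, the layer that encloses the growing hair.

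Krt36 and Krt84 lie in the keratin gene clusters of chromosome 11 and chromosome 15. In the RefSeq annotation of GRCm38.p6, Krt36 lies between Krt35 and Krt13, and Krt84 lies between Krt83 and Krt82. Their promoters are shown because these genes moved together across the arrays, together with the promoter of Krt31, a type I hair keratin that gave low signal. Each window is the 250 bases before the RefSeq start (GRCm38.p6, minus strand, written 5′ to 3′), at chr11:100105627-100105876 for Krt36, chr15:101532821-101533070 for Krt84 and chr11:100050552-100050801 for Krt31. Capitals mark matches on either strand to the TCF/LEF core (CTTTGA or CTTTGT), the TATA box (TATAAA) or the Gli site (GACCACCCA).
Krt36: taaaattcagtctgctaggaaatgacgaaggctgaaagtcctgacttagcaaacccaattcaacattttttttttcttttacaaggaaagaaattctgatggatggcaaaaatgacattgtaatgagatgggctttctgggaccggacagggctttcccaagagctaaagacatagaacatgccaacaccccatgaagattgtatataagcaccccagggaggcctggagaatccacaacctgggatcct
Krt84: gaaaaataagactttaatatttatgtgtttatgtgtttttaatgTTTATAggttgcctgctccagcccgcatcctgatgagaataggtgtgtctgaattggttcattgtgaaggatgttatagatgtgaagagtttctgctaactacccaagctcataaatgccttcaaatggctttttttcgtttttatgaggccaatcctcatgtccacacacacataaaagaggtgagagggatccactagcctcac
Krt31: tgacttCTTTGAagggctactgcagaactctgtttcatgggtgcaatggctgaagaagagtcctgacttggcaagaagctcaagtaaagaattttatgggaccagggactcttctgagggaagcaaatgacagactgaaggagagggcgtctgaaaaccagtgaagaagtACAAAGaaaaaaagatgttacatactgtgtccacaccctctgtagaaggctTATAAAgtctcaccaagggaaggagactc
The Krt36 window held none of these exact letter strings, and other forms of the motifs were not searched. The Krt84 window held 1 TATA box match, on the opposite strand and beginning at position −206 from the start. The Krt31 window held 2 TCF/LEF core matches and 1 TATA box match at position −29, and the window of Krt71 held 1 TATA box match. Of 32851 RefSeq promoter windows of the same length, 27.6% held the TCF/LEF core, 12.4% the TATA box and 0.225% the Gli site. Of the 5 genes, 4 had an entry in the promoter table used here, and Krt35 had none. A match describes letters in this window only.

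Krt36 and Krt84 lay far above the 40th percentile in control tail epidermis and were lower after 4 and 10 weeks of SmoM2, and lowest in the β-catenin loss group. Krt36 was at 13.22, 13.08 and 12.87 in control replicates 1, 2 and 3 and at 13.75 in the 3-day array. It was at 11.39, 10.29 and 13.30 in replicates 1, 2 and 3 at 1 week and at 9.36, 6.77 and 10.56 at 4 weeks. It was at 7.35 and 8.69 at 10 weeks and at 7.17 and 6.71 with β-catenin loss. All 3 arrays at 4 weeks, both at 10 weeks and both with β-catenin loss lay below every control array. At 1 week, replicate 3 lay above every control array and replicates 1 and 2 below, so these groups overlapped.

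Krt84, the type II gene, followed the same order of groups. It was at 12.51, 12.92 and 12.30 in control arrays and at 13.22 in the 3-day array. It was at 10.94, 9.75 and 12.79 at 1 week and at 8.24, 7.18 and 9.84 at 4 weeks. It was at 6.73 and 7.93 at 10 weeks and at 6.62 and 6.23 with β-catenin loss. Its arrays at 4 weeks, 10 weeks and with β-catenin loss also lay below every control array, and those at 1 week overlapped with control. In each group of more than 1 array, the array lowest for Krt84 was also the lowest for Krt36. In arrays of bulk cells, fewer cells of a type and less RNA per cell cannot be told apart.

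**Figure D1:**
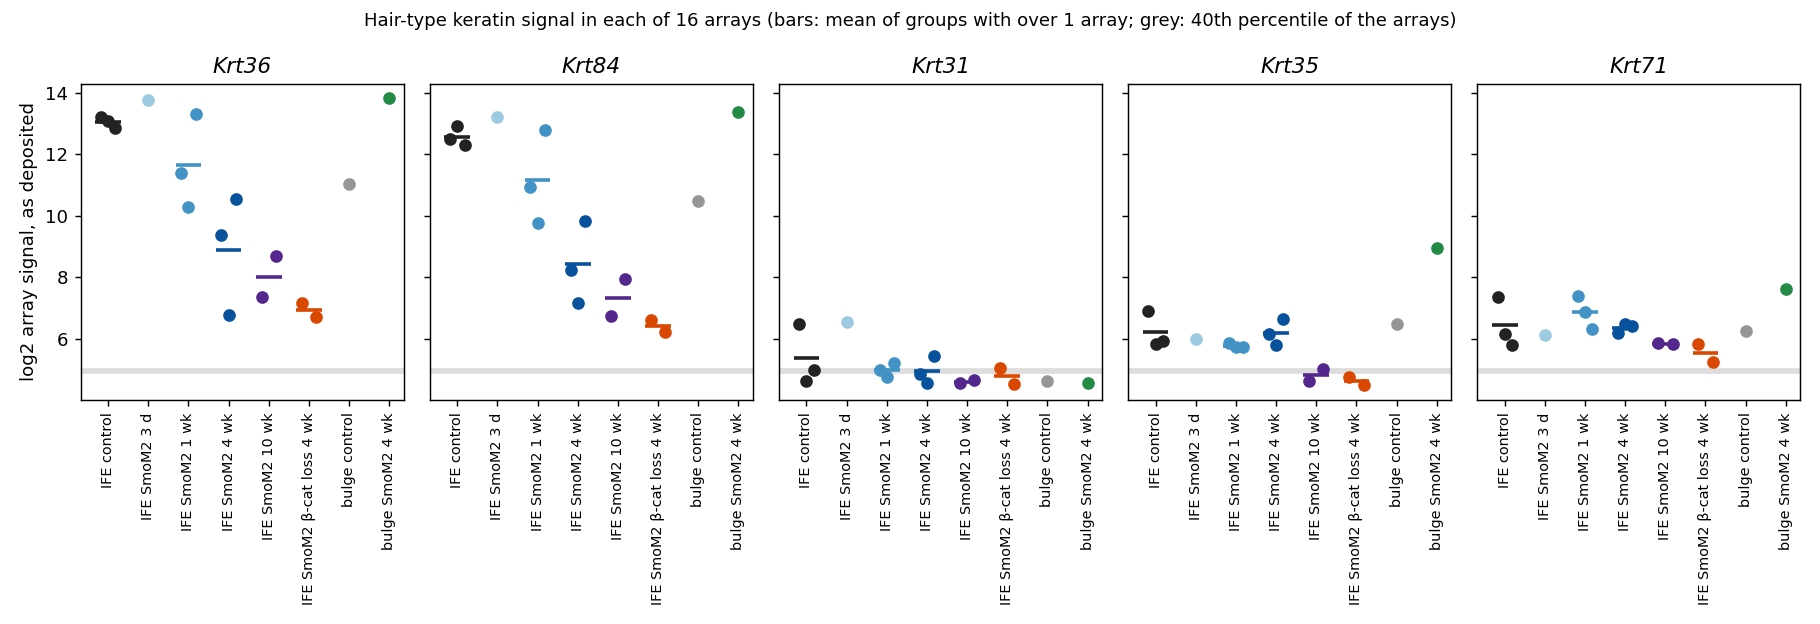
Log2 array signal (vertical axis) of the 5 keratin genes in each of 16 arrays by group (horizontal axis); points are arrays, bars are means of groups with more than 1 array, and the grey band is the 40th percentile of the arrays. The means of Krt36 run from 13.05 in control arrays to 6.94 with β-catenin loss and those of Krt84 from 12.58 to 6.43, while most Krt31 points lie near the grey band.

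At 4 weeks the difference from control was −4.16 ± 0.88 (SE) for Krt36, or 17.9-fold lower, and −4.16 ± 0.74 (SE) for Krt84, also 17.9-fold lower. The value for Krt36 without 4-week replicate 2 was −3.10, and without replicate 3 it was −4.99. At 10 weeks the difference was −5.03 ± 0.98 (SE) for Krt36, or 32.8-fold lower, and −5.25 ± 0.83 (SE) for Krt84, or 38.0-fold lower. These contrasts led to the choice of both genes and are read no further. Over all genes tested, 3.24% passed the threshold at 4 weeks and 0.700% at 10 weeks (limma, adjusted p under 0.05), and 8.12% and 20.5% were lower than control without overlap.

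At the early times no difference passed. The comparisons given here share control, 4-week or 10-week arrays with the contrasts that led to the choice of Krt36 and Krt84. They are therefore not separate evidence. At 1 week Krt36 differed from control by −1.39 ± 0.88 (SE; 95% interval −3.32 to 0.53) and Krt84 by −1.42 ± 0.74 (SE; −3.05 to 0.21), each with an adjusted p of 1.0 by limma. Without 1-week replicate 3 the values were −2.21 for Krt36 and −2.24 for Krt84, and without replicate 2 both were −0.71. The SE and interval come from a fit that does not pair the arrays. No alternative passed at 1 week, the replicate blocks among them (lowest limma adjusted p of 0.5 for Krt36 and 0.236 for Krt84). Of all genes, 0.00% passed at 1 week with limma, against 677 genes at an unadjusted p under 0.05. In the single 3-day array Krt36 was 0.69 ± 1.25 (SE) and Krt84 0.64 ± 1.05 (SE) above the control mean, and 0.00% of genes passed (222 at an unadjusted p under 0.05). From 1 to 4 weeks the difference was −2.76 ± 0.88 (SE) for Krt36 and −2.74 ± 0.74 (SE) for Krt84, with a limma adjusted p of 0.997 for each, and the groups overlapped. Within replicate numbers 1, 2 and 3, which pair these groups, the difference was −2.03, −3.52 and −2.74 for Krt36 and −2.70, −2.57 and −2.95 for Krt84, so all 3 pairs were lower at 4 weeks. With the replicate number as a block the limma adjusted p was 0.465 for Krt36 and 0.448 for Krt84. Here too 0.00% of genes passed, with 688 at an unadjusted p under 0.05. From 4 to 10 weeks Krt36 differed by −0.88 ± 0.98 (SE; 95% interval −3.03 to 1.28) and Krt84 by −1.09 ± 0.83 (SE; −2.91 to 0.73), with adjusted p of 0.902 and 0.862 by limma, and 0.00% of genes passed (893 at an unadjusted p under 0.05).

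By group mean, Krt36 ran from bulge SmoM2 (13.83) through the 3-day array (13.75), control (13.05 ± 0.18), 1 week (11.66 ± 1.52), bulge control (11.04), 4 weeks (8.90 ± 1.93) and 10 weeks (8.02 ± 0.95) to β-catenin loss (6.94 ± 0.32; all SD), where bulge control is the array labelled untreated. Krt84 had the same order, from 13.37 in bulge SmoM2 and 12.58 ± 0.31 (SD, n = 3) in control to 6.43 ± 0.27 (SD, n = 2) with β-catenin loss. For both genes, neighbours in this order that overlapped were control and 1 week, 1 week and bulge control, and 4 and 10 weeks. The 1-week and 4-week arrays also overlapped, with bulge control between their means. The 10-week arrays lay above the β-catenin loss arrays without overlap, a difference that was not tested. The share of all genes with this order was not counted.

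With β-catenin loss, Krt36 was 69.1-fold lower than in control (−6.11 ± 0.98 SE, limma adjusted p = 0.0346), lower in 2 of 2 arrays. Krt84 was 71.2-fold lower (−6.15 ± 0.83 SE, limma adjusted p = 0.031), also in 2 of 2 arrays. In this comparison 0.371% of genes passed, 0.140% with lower values, and 20.7% were lower than control without overlap. It shares its control arrays with the contrasts that led to the choice of the genes, so it is not separate evidence. The threshold was also missed for both genes when any 1 of the 5 arrays was left out (control replicate 1, 2 or 3, or loss replicate 1 or 2). The limma adjusted p then ran from 0.0853 to 0.19 for Krt36 and from 0.0557 to 0.106 for Krt84, with differences of −6.34 to −5.88 and −6.35 to −5.96.

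Set against SmoM2 alone at 4 weeks, neither gene passed the threshold with β-catenin loss. This comparison shares its 4-week arrays with a contrast that led to the choice of both genes. The difference was −1.95 ± 0.98 (SE; 95% interval −4.11 to 0.20, limma adjusted p = 0.347) for Krt36, and replicate 2 at 4 weeks lay among the loss arrays. For Krt84 it was −1.99 ± 0.83 (SE; 95% interval −3.82 to −0.17, limma adjusted p = 0.246), and the groups did not overlap. Over all genes, 2.23% passed here and 17.6% were lower in the loss arrays without overlap. Without 4-week replicate 2 the Krt36 difference was −3.01, and without replicate 3 it was −1.12. Without replicate 3 the Krt84 difference was −1.28. The groups also differed in hedgehog target genes. The mean level of 3 such genes lay between 7.43 and 9.95 with β-catenin loss and between 10.47 and 11.64 at 4 weeks. In control arrays it lay between 6.45 and 7.20. The part of this difference in the values of Krt36 and Krt84 was not tested.

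Krt36 and Krt84 varied together from array to array. Over the 16 arrays Pearson's r was 0.993 and Spearman's rho 0.982, and over the 14 IFE arrays r was 0.992. These values describe arrays that fall into groups far apart in both genes and that share normalization, so they carry no p-value. Of the other keratins here, Krt35 had r = 0.663 with Krt36, Krt71 had 0.508 and Krt31 had 0.496.

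**Figure D2:**
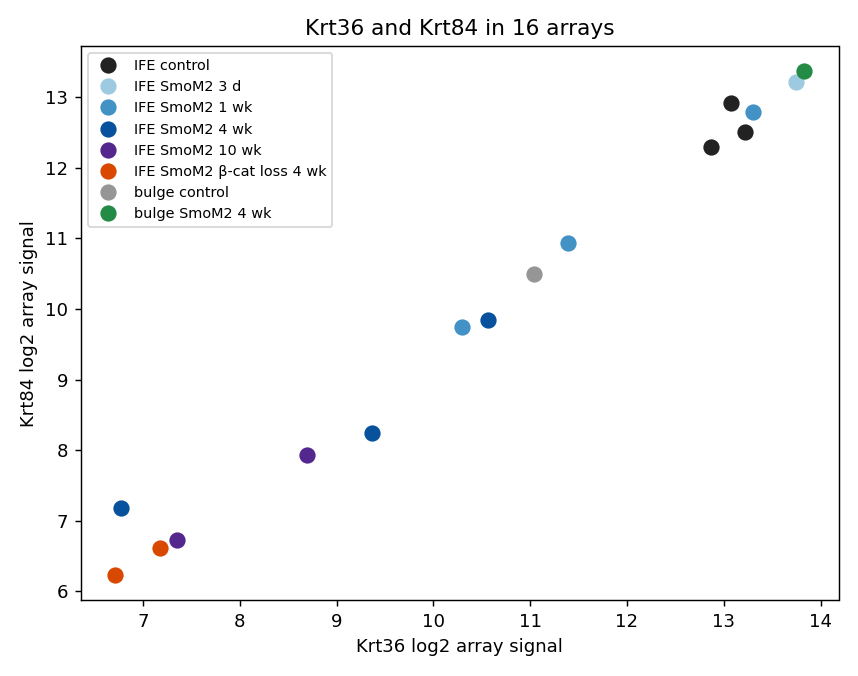
Log2 array signal of Krt36 (horizontal axis) and Krt84 (vertical axis) in 16 arrays, with 1 point per array coloured by group. The arrays lie along a line from the β-catenin loss arrays (6.71 and 6.23 in the lowest) to the bulge SmoM2 array (13.83 and 13.37).

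Outside the 5 keratins, the genes whose pattern over the 16 arrays was most like Krt36 were Rcn1 (r = 0.888), Fras1 (0.888), Aox4 (0.882), Gsta2 (0.872), Dbi (0.864) and Gpm6a (0.863). For Krt84 they were Aox4 (r = 0.899), Fras1 (0.885), Rcn1 (0.883), Elmod3 (0.883), Gsta2 (0.879) and Dbi (0.879), so 5 genes were named for both. Gsta2, a glutathione S-transferase gene, was at 8.07, 8.73 and 8.56 in control arrays. It was at 5.06, 4.16 and 5.01 at 4 weeks and at 9.03 in the bulge SmoM2 array. Dbi, which encodes an acyl-CoA binding protein, was at 12.47, 12.59 and 12.39 in control arrays and at 9.71, 10.25 and 11.38 at 4 weeks. In both genes every 4-week array lay below every control array. As they were picked for their likeness, no test is given.

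Krt31, a type I gene of the hair shaft, gave little signal in these arrays. It was also listed here with Krt36 and Krt84 as a marker of tail scale epidermis, but did not share their course. It was at 6.49, 4.63 and 4.99 in control arrays and at 6.56 in the 3-day array. In all later IFE arrays it lay between 4.54 and 5.43, and in the bulge arrays it was at 4.63 and 4.57. Only control replicate 1 and the 3-day array stood more than 1 log2 unit above the 40th percentile of the arrays. The difference from control was −0.42 ± 0.41 (SE) at 4 weeks and −0.76 ± 0.46 (SE) at 10 weeks, and with β-catenin loss it was −0.58 ± 0.46 (SE, limma adjusted p = 0.572). Each of these groups overlapped with the control arrays. Without control replicate 1 the 4-week difference was 0.14. The gene closest to Krt31 in pattern was Krt33a (r = 0.931), another type I hair keratin. It was followed by Krt83 (r = 0.881) and the hair keratin-associated protein gene Krtap11-1 (r = 0.876). Next came Tinf2 (r = 0.864), Ambp (0.85) and Pdap1 (0.803), which are not keratin genes. Krt33a was at 6.75 in control replicate 1, against 4.85 and 5.57 in the other control arrays, and at 7.36 in the 3-day array. The same arrays were thus high for Krt31 and Krt33a.

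Krt35, a type I keratin of the hair shaft, differed from Krt36 and Krt84 in its course. It was at 6.89, 5.84 and 5.93 in control arrays and at 6.15, 5.79 and 6.64 at 4 weeks. It was at 4.64 and 5.01 at 10 weeks and at 4.75 and 4.49 with β-catenin loss. The 4-week arrays overlapped with control, whereas the 10-week and β-catenin loss arrays lay below every control and every 4-week array. Of all genes tested, 20.5% were lower than control without overlap at 10 weeks and 20.7% with β-catenin loss. With loss, 17.6% were lower than at 4 weeks without overlap, and the share for 10 against 4 weeks was not counted. Krt35 was lower with β-catenin loss than with SmoM2 alone at 4 weeks by −1.57 ± 0.33 on the log2 scale (SE, 2.97-fold, limma adjusted p = 0.0385), in 2 of 2 arrays. Over all genes, 1.58% were called lower in this comparison. That call rests on single arrays and on the fit. It was lost without 4-week replicate 1 (limma adjusted p = 0.0651), 4-week replicate 3 (0.069), loss replicate 1 (0.222) or loss replicate 2 (0.122). It was also lost with array weights (limma adjusted p = 0.0639) and with only the compared groups in the fit (0.119). Against control, the β-catenin loss arrays differed by −1.60 ± 0.33 (SE), which missed the threshold (limma adjusted p = 0.0682). The 10-week arrays differed from the 4-week arrays by −1.37 ± 0.33 (SE, limma adjusted p = 0.702) and from control by −1.40 ± 0.33 (SE), which ran from −1.59 to −1.07 over the alternatives. At 4 weeks the difference from control was −0.03 ± 0.29 (SE), and without control replicate 1 it was 0.30. Over the 16 arrays the genes most like Krt35 in pattern were Tmcc2 (r = 0.88), Krt75 (0.871), Parm1 (0.869), Krt28 (0.856), Serpina11 (0.834) and Klhl13 (0.831). Krt75 is a keratin of the companion layer and Krt28 one of the inner root sheath. Over the 14 IFE arrays r was 0.869 for Tmcc2 and 0.859 for Parm1. It was lower for Krt75 (0.748), Krt28 (0.614), Serpina11 (0.649) and Klhl13 (0.652).

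Krt71, the inner root sheath keratin, passed the threshold in none of the comparisons tested. It was at 7.36, 6.17 and 5.79 in control arrays, at 6.11 in the 3-day array, and at 7.39, 6.88 and 6.33 at 1 week. It was at 6.18, 6.49 and 6.41 at 4 weeks, at 5.85 and 5.83 at 10 weeks, and at 5.84 and 5.26 with β-catenin loss. Every IFE group overlapped with the control arrays. The difference from control was −0.08 ± 0.38 (SE) at 4 weeks (0.38 without control replicate 1), and with β-catenin loss it was −0.89 ± 0.42 (SE, limma adjusted p = 0.356). The β-catenin loss arrays lay below every 4-week array, by −0.81 ± 0.42 (SE; 95% interval −1.73 to 0.11, limma adjusted p = 0.362). Of all genes tested, 17.6% were lower in this comparison without overlap. Over the 16 arrays the genes most like Krt71 in pattern were Cdc73 (r = 0.83), Ptpn2 (0.824), Cish (0.812), Capn6 (0.812), Snrpb (0.78) and Serpina11 (0.766).

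In the bulge arrays Krt36 and Krt84 were higher in the array labelled SmoM2 at 4 weeks than in the array labelled untreated, whose Gli1 and Ptch1 levels are given above. Krt36 was at 11.04 in the array labelled untreated and at 13.83 in the SmoM2 array, a difference of 2.79. Krt84 was at 10.49 and 13.37, a difference of 2.88. Krt35 was at 6.47 and 8.95 (difference 2.48), Krt71 at 6.26 and 7.63 (1.37), and Krt31 at 4.63 and 4.57 (−0.06). Thus 4 of the 5 genes were at least 2-fold higher, and over all genes 4.35% were at least 2-fold higher and 2.59% at least 2-fold lower. There is 1 array per group, so these differences have no replicate check and no test. Inner root sheath and companion layer keratins were higher in the same array, 7 of 8 by at least 2-fold, among them Krt71, Krt25 (difference 3.27) and Krt28 (2.53). The 7 other type I and type II hair keratins tested had differences from −0.45 to 0.48, with 0 of 7 past 2-fold. Of 17 genes of suprabasal interfollicular differentiation, 12 were at least 2-fold higher there, with a median difference of 1.95 against 0.01 over all genes. Their mean level was 8.23 in the array labelled untreated and 10.07 in the SmoM2 bulge array, and its part in the result was not tested.

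The other keratins of hair, inner root sheath and companion layer had smaller differences from control than Krt36 and Krt84 at 1, 4 and 10 weeks and with β-catenin loss. Krt36 and Krt84 were chosen for low values at 4 and 10 weeks, so this order was set in advance there. In the single 3-day array Krt33a was 1.64, Krt25 0.93 and Krt34 0.77 above the control mean, against 0.69 for Krt36. Of 20 such genes besides the 5, 15 were measured and 14 passed the filter. None of the 14 passed the threshold against control at 1 week, 4 weeks, 10 weeks or with β-catenin loss (limma, adjusted p under 0.05). Of all genes tested, 0.00%, 3.24%, 0.700% and 0.371% passed in these comparisons, so this count lies near the background. The median difference of the 14 from control was −0.15 at 4 weeks, −0.52 at 10 weeks and −0.53 with β-catenin loss, against −0.05, −0.06 and −0.12 over all genes tested. The number of these 14 genes below control was 10 at 4 weeks, 13 at 10 weeks and 13 with β-catenin loss. Krt83, the neighbour of Krt84, differed from control by −0.31 at 4 weeks, and Krt13, the neighbour of Krt36, did not pass the filter on low signal. Set against SmoM2 alone, 1 of the 14 fell with β-catenin loss, Krt75 (−1.91 ± 0.41 SE, limma adjusted p = 0.0409). This call was lost without 4-week replicate 1 (limma adjusted p = 0.0693) or 3 (0.0534) and without loss replicate 1 (0.161) or 2 (0.169).

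**Figure D3:**
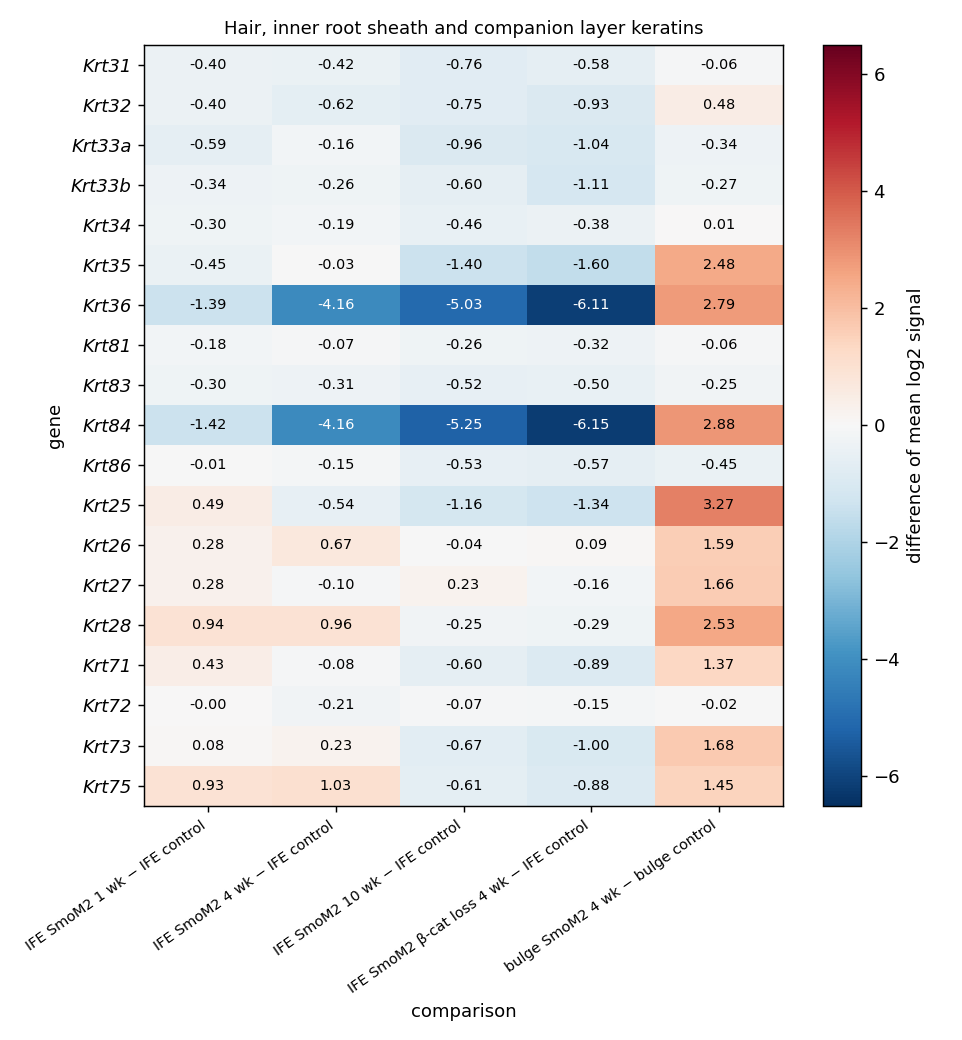
Difference of mean log2 signal (colour and printed number) for each hair, inner root sheath and companion layer keratin that passed the filter (rows) in 5 comparisons (columns). Krt36 and Krt84 have values down to −6.11 and −6.15 in IFE and are positive in the bulge column, which compares 1 array with 1 array.

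Other genes of hair differentiation gave values in both directions. Of 12 tested hair shaft and inner sheath proteins, 1 rose and none fell at 4 weeks, when 2.44% of all genes rose and 0.798% fell. The gene that rose was Lap3, a leucine aminopeptidase (2.64 ± 0.33 SE, limma adjusted p = 0.00604). Selenbp1, a selenium-binding protein gene, was at 11.56, 11.70 and 11.29 in control arrays and at 8.77, 7.65 and 8.47 at 4 weeks. Its difference of −3.22 just missed the threshold (limma adjusted p = 0.0506) and passed with the replicate number as a block (adjusted p = 0.0323). Of 12 transcription factors of hair differentiation, 1 rose and none fell at 4 weeks, against the same 2.44% and 0.798% of all genes. Lef1, a transcription factor of the Wnt pathway, rose by 1.37 ± 0.19 (SE, limma adjusted p = 0.00884). With the replicate number as a block 3 of these 12 factors fell at 4 weeks, against 2.20% of all genes under the same block: Foxn1 (−1.83, limma adjusted p = 0.138 without and 0.0422 with the block), Ovol1 (−1.29, 0.174 and 0.0432) and Dlx3 (−0.82, 0.191 and 0.0462). With β-catenin loss against SmoM2 alone, Lef1 fell by 1.70 ± 0.21 on the log2 scale (SE, limma adjusted p = 0.00948). Cux1, another factor of this list, fell by 2.09 ± 0.33 (SE, limma adjusted p = 0.0148). Without loss replicate 1 the limma adjusted p was 0.0748 for Lef1 and 0.181 for Cux1. Hoxc13, a factor known to act on hair keratin genes, differed from control by −0.63 ± 0.41 (SE, limma adjusted p = 0.558) at 4 weeks and by −1.78 (adjusted p = 0.114) with β-catenin loss.

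Keratins and proteins of interfollicular differentiation were lower at 4 weeks in some genes. Of 17 tested, 2 fell and none rose, against 0.798% and 2.44% of all genes: Krt2, a keratin of differentiating epidermal cells (−3.83 ± 0.85 SE, limma adjusted p = 0.0349), and Tgm3, a transglutaminase of cornified cells (−3.37 ± 0.50 SE, adjusted p = 0.0101). The Krt2 call was lost without any 1 of the 3 control arrays or of 4-week replicates 1 and 2 (limma adjusted p from 0.0615 to 0.127). The Tgm3 call was lost without control replicate 2 (limma adjusted p = 0.0536) or 3 (0.05). Krt2 was at 12.74, 13.12 and 12.69 in control arrays and at 9.78, 6.89 and 10.37 at 4 weeks. With β-catenin loss it was at 10.14 and 11.78. Replicate 2 at 4 weeks was the lowest array for Krt2, as for Krt36 and Krt84. Where Krt36 was lower in both loss arrays than in 4-week replicates 1 and 3, Krt2 was higher in loss replicate 2 than in any 4-week array. Krt10 was at 14.01, 13.95 and 13.69 in control arrays and at 13.08, 12.59 and 13.14 at 4 weeks, a difference of −0.94 ± 0.26 (SE, limma adjusted p = 0.0781).

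**Figure D4:**
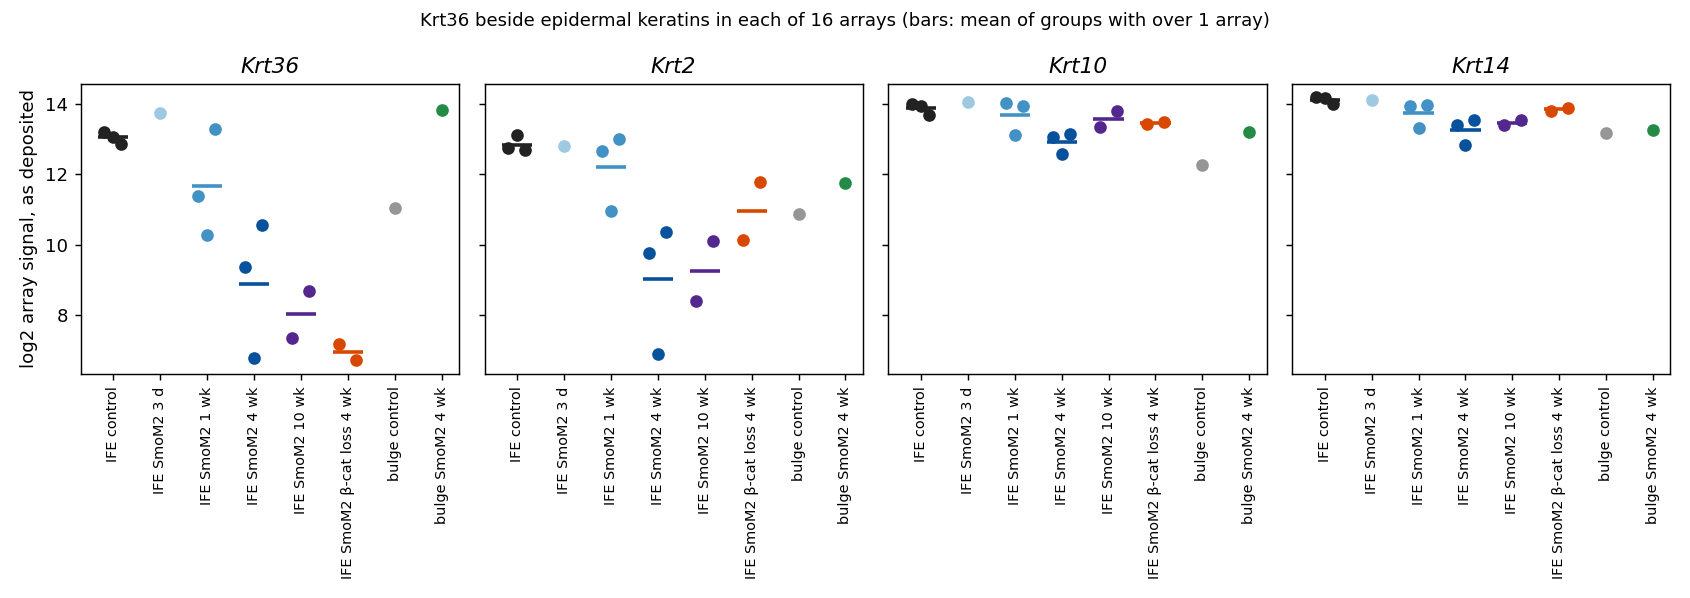
Log2 array signal (vertical axis) of Krt36, Krt2, Krt10 and Krt14 in each of 16 arrays by group (horizontal axis); points are arrays and bars are means of groups with more than 1 array. Krt2 is low at 4 weeks (6.89 to 10.37) and at 10.14 and 11.78 with β-catenin loss, while Krt14 has group means between 13.18 and 14.13.

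Markers of other cells that a sort from tail epidermis can hold also differed between the groups. The mean level of 9 melanocyte genes lay between 7.02 and 8.94 in control arrays, 6.26 and 7.46 at 4 weeks, 5.73 and 6.47 at 10 weeks, and 5.53 and 5.59 with β-catenin loss. None of the 9 passed the threshold at 4 weeks, and 8 were below control, with a median of −1.50. The mean level of 8 sebaceous gland genes lay between 8.50 and 9.36 in control arrays, 6.47 and 8.49 at 4 weeks, and 9.49 and 10.05 with β-catenin loss. The 17 suprabasal genes lay between 9.62 and 9.99 in control arrays, 8.25 and 9.74 at 4 weeks, 9.42 and 9.59 at 10 weeks and 8.78 and 9.32 with β-catenin loss. The 12 basal genes had mean levels of 11.81 to 11.89 in control arrays and 11.29 to 11.48 at 4 weeks, and the 13 bulge markers 8.62 to 8.93 and 9.52 to 10.45. The 8 leukocyte genes had 5.57 to 6.13 and 5.39 to 6.39, and the 9 fibroblast genes 6.11 to 6.90 and 6.71 to 6.88. The part of these differences in the values of Krt36 and Krt84 was not tested.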

How the data were processed

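The table holds 45101 probe sets in 16 arrays, of which 34958 map to 1 gene symbol, 932 to several and 9211 to none in the platform annotation. Per the labels' protocols, RNA was amplified with a 3′ IVT kit for Affymetrix arrays. The authors deposited log2 values, as read from their range, with array medians of 5.38 to 5.53. Background correction and normalization were not given in the sources used here, apart from R 2.14.0 in the submitters' processing notes. Precision is limited by the number of arrays. Cross-hybridisation between related keratins was not tested.

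A gene with several probe sets was read from that with the highest mean. Genes above the array's 40th percentile in at least 2 of 16 arrays were tested. Group means of the 14 IFE arrays were fitted with limma 3.58.1 in R 4.3.3, with Benjamini-Hochberg adjustment over 14286 genes and a threshold of 0.05. The bulge arrays, 1 per group, were compared without a test. The fit was tested on simulated data. Samples were grouped by their labels. Same-numbered control, 1-week and 4-week arrays deviated together from their group means (9 correlations of 0.343 to 0.696). On these values the replicate numbers of the titles are read as pairing these groups. The 18 pairs of different number had −0.532 to −0.00214. Deviations within a group cancel out, so these negative values follow partly from the positive ones and are not separate evidence. Promoters are those of RefSeq on GRCm38.p6.

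The 5 genes and all lists were chosen with earlier results of these data known. Named were the 5 genes, from each list up to 4 called genes by size of change (without calls, those of lowest adjusted p), and the 6 genes most like each of the 5. Krt83, Krt13, Krt10, Krt33a, Krt34, Krt25, Hoxc13, Selenbp1, Foxn1, Ovol1, Dlx3 and Krt28 were named after their values were seen where that rule does not give them. Alternatives were no filter, quantile normalization, array weights, only the compared groups, the mean of all probe sets, replicate blocks, a trended robust fit and leaving out each replicate.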

Additional observations from a re-analysis of the deposited data

Results flagged for a closer look

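In bulge and outer root sheath cells, the SmoM2 array at 4 weeks was above the array labelled untreated for both Krt36 and Krt84. The log2 difference was 2.79 for Krt36 and 2.88 for Krt84, and 4.35% of all genes were at least 2-fold higher. In contrast, every IFE array with SmoM2 alone at 4 weeks lay below every IFE control array, as in 8.12% of all genes tested. Both genes were chosen on this IFE difference, so that side of the contrast was set in advance. The difference between the cell populations was not tested, since the bulge groups have 1 array each. The bulge arrays come from mice with the K19CREERT2 driver, which cannot be told apart from the cell population here. The array labelled untreated had Gli1 at 9.89 and Ptch1 at 12.57, against 9.96 and 12.78 in the SmoM2 bulge array, and its source label names SmoM2-positive cells.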

How the results depend on the processing

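Krt36 and Krt84 kept their direction in every comparison with control, and between β-catenin loss and SmoM2 alone, under all alternatives run. Against control at 4 and 10 weeks both genes were chosen on that direction, so there it is a description only. Against control with β-catenin loss, leaving out 1 array ended both calls, with differences of −6.34 to −5.88 for Krt36 and −6.35 to −5.96 for Krt84. Outside the contrasts that led to their choice, the replicate block, by title number or experiment number, changed no call of Krt36 or Krt84. For Krt35 with β-catenin loss against control, the block by experiment number gave −1.57 (limma adjusted p = 0.0426). By title number, the 10-week or loss arrays did not all deviate together with arrays of other groups. The 10-week arrays titled 1 and 2 carry experiment numbers 2 and 3. Matched by experiment number, they had correlations of 0.137 and 0.178 with 1-week arrays and 0.0417 and 0.119 with 4-week arrays. With control arrays these were −0.125 and −0.0615. In a group of 2 arrays the deviations mirror each other, so this check says little. Small differences changed sign, all without passing: Krt31 from 1 to 4 weeks was 0.064 with array weights and −0.27 to 0.18 with an array left out. Leaving out an array gave −0.765 to 0.16 for Krt31 at 1 week, −0.41 to 0.12 for Krt35 and −0.65 to 0.13 for Krt71 at 3 days, positive only without control replicate 1. Against control at 4 weeks the alternatives ran from −0.79 to 0.14 for Krt31, −0.25 to 0.30 for Krt35 and −0.41 to 0.38 for Krt71. Krt31 with β-catenin loss against SmoM2 alone ran from −0.41 to 0.098 (positive without 4-week replicate 3 or loss replicate 2). Counts of genes called moved more. At 4 weeks, 463 became 873 or 856 with the block (title or experiment number) and 13 to 237 in 5 of the fits with an array left out. At 10 weeks, 100 became 59 without the filter, 1545 with array weights, 738 with only the compared groups, 163 or 207 with the block and 0 to 45 with an array left out. With β-catenin loss against control, 53 became 96 with array weights, 86 with the mean of probe sets, 169 or 143 with the block and 1 to 9 in 4 fits with an array left out. Against SmoM2 alone, 318 became 102 with array weights, 17 with only the compared groups, 1347 or 1181 with the block, and 147 or 2 without 4-week replicate 1 or loss replicate 1. At 1 week, 0 became 2 or 5 with the block and 50 or 1 without 1-week replicate 3 or control replicate 3. At 3 days 0 became 1 with array weights. From 1 to 4 weeks 0 became 24 or 1 without 1-week replicate 2 or 4-week replicate 3. From 4 to 10 weeks 0 became 14 with array weights, 2 with the block by title number, 1 with quantile normalization or the trended fit, and 1 or 13 without 4-week replicate 1 or 2. Krt2 at 4 weeks also lost its call without the filter, with array weights or with only the compared groups (limma adjusted p of 0.057, 0.138 and 0.0548). Krt75 with β-catenin loss lost its call without the filter (0.0506), and Krt75, Lef1 and Cux1 with only the compared groups (0.176, 0.0664 and 0.0842). Cux1 also lost it with the mean of probe sets (0.097). The causes were not tested. Krt31 lies near the 40th percentile of the arrays, so small differences in it are limited by signal.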
